A study of Mus musculus with 7 samples.

Results

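The chemokines and chemokine receptors of the mouse liver were taken from the deposited gene table by their symbols: the CC and CXC ligands and receptors, the atypical receptors of the Ackr series, Cx3cl1 and Xcl1 with their receptors Cx3cr1 and Xcr1, and the platelet chemokines Pf4 and Ppbp. This gave 61 genes, 39 ligands and 22 receptors, of the 27810 genes listed. The samples were livers of male wild-type C57BL/6J mice that had been fed from 5 weeks of age on a diet labelled WD, with 40% fat, 20% fructose and 2% cholesterol, which the labels link to NASH, a fatty liver disease with inflammation. After 32 weeks the mice had received 1 injection into the tail vein, of mesenchymal stromal cells from human umbilical cord (hUC-MSCs) in a number the labels do not give, or of the saline PBS, and liver was collected after 40 weeks. All groups shared the diet. Bulk RNA was sequenced in 3 MSC libraries (replicates 0, 1 and 2), 3 vehicle libraries (replicates 1, 3 and 4) and 1 further vehicle library (replicate 6) whose label carries the word Cancer, with no statement of what was cancerous. That library is called the Cancer-labelled library here and forms a group of its own. Whether the libraries come from different animals is not said in the labels, and p-values therefore reflect how far these libraries scatter, which may be technical.

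Chemokines are small secreted proteins that guide leukocytes along concentration gradients by binding G protein-coupled receptors on the migrating cell. CC chemokines mostly bind CCR receptors on monocytes, macrophages, lymphocytes and eosinophils. CXC chemokines with an ELR motif bind CXCR1 and CXCR2 on neutrophils, and those induced by interferon bind CXCR3 on T and NK cells. Atypical receptors bind chemokines without signalling to G proteins and remove or carry them. In steatohepatitis the best known axis is CCL2 acting on CCR2, which brings monocytes from blood into the liver.

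Values are FPKM, that is fragment numbers corrected for transcript length and library size, so levels can be compared between genes. Tests were made with limma on log2(FPKM + 1), with Benjamini-Hochberg adjustment over all genes tested and a threshold of adjusted p under 0.05. A difference on this scale understates the change of low genes. Albumin, the main plasma protein made by hepatocytes, lay between 12350 and 28892 FPKM in the 7 libraries, as liver tissue has. The Cancer-labelled library listed the most genes with at least 1 FPKM, 12041 against 9655 to 10931 in the others, and MSC replicate 1 had 36.4% of its FPKM in mitochondrially encoded genes against 16.5% to 23.3% in the others.

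Promoter sequences are shown for the most abundant CC and CXC ligands of the vehicle livers with a usable window, Ccl9 and Cxcl1, and for Cxcl14 and Ccl21a, which were higher in the Cancer-labelled library. The sequences are from RefSeq, build GRCm38.p6, and run 5′ to 3′ on the strand of the gene, covering up to 250 bases before its RefSeq start, less any base inside the deposited gene. They lie at chr11:83578637-83578886 (minus strand) for Ccl9, chr5:90890995-90891240 (plus) for Cxcl1, chr13:56296552-56296801 (minus) for Cxcl14 and chr4:42773994-42774241 (minus) for Ccl21a. Capitals mark matches, on either strand, to the κB motif of NF-κB (GGGA and TTCC with any 2 bases between them), the interferon response motif (GAAA and GAAA with any 2 bases between them), the AP-1 motif TGANTCA or the TATA motif TATAAA.
Ccl9: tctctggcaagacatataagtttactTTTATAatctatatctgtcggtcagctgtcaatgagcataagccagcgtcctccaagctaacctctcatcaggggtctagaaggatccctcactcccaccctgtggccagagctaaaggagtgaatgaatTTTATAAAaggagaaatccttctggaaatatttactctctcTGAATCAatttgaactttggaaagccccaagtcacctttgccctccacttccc
Cxcl1: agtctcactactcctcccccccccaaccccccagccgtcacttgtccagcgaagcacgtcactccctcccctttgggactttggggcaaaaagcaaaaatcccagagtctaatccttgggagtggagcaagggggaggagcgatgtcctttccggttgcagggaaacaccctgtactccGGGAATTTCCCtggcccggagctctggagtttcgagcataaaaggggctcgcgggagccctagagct
Cxcl14: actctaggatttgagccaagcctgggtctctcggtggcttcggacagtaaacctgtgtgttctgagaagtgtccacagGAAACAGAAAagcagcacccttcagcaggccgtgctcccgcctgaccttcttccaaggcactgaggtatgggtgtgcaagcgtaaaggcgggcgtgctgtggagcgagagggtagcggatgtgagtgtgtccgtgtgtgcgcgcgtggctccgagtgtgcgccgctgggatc
Ccl21a: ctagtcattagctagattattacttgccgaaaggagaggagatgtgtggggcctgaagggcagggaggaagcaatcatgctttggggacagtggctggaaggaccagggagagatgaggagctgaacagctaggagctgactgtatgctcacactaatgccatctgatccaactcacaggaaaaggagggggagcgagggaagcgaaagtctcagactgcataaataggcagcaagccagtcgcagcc

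The Cxcl1 window held a κB match from base -71 to base -62, counted from the RefSeq start, overlapped by a match on the other strand from -70 to -61. The Cxcl14 window held an interferon response match from -172 to -163, the Ccl9 window an AP-1 match from -53 to -47 and TATA matches, and the Ccl21a window none of the 4 motifs. A match is a stretch of letters and not a measured binding site. RefSeq windows were found for 47 members, with 54 windows in all. The κB motif was in 6 of these 54 windows (11.1%) against 1.21% of all 32851 windows of the same length, in Cxcl1, Cxcl2, Cxcl3, Cxcl10, Ccl1 and Ccr3. The interferon response motif was in 3 (5.56%, against 2.98% of all windows), in Cxcl10, Cxcl14 and Ccl19. The AP-1 motif was in 7 (13%, against 6.75%) and the TATA motif in 14 (25.9%, against 12.4%). Some neighbouring chemokine genes are close copies of each other, so these windows are not independent.

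The chemokine RNA of these livers was dominated by a few ligands. All 61 members together made up between 0.0156% and 0.0431% of the FPKM of a library. Cxcl12, the stromal ligand of CXCR4 that retains and recruits leukocytes and progenitors, was the highest member in 6 of the 7 libraries and alone held 24.4% to 48.0% of the members' summed FPKM. In the vehicle libraries it averaged 42.9 ± 5.56 FPKM (SD, n = 3). Next came Cxcl1 at 11.8 ± 10.2 FPKM, Ccl9 at 10.5 ± 3.10 FPKM and Ccl6 at 9.48 ± 3.01 FPKM (SD, n = 3 each), whose order is within their spread. Ccl5, Cxcl9, Cxcl16 and Ccl3 followed between 2.75 and 4.27 FPKM and Cxcl10, Ccl27a and Cxcl14 between 1.57 and 1.91 FPKM, again within their spread of each other. Receptors were lower: Cxcr4, the highest in the vehicle mean, was at 1.23 ± 0.534 FPKM (SD, n = 3). In bulk tissue, fewer cells of a type and less RNA per cell cannot be told apart.

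Of the 61 members, 33 stayed under 1 FPKM in every library, 17 ligands and 16 receptors, and 21 were listed at 0 in at least 1 library. In 3 or more libraries, or in the Cancer-labelled library, 23 members reached 1 FPKM, and 22 of them are described with all their values. The number of members with at least 1 FPKM was 19, 11 and 11 in MSC replicates 0, 1 and 2, 18, 11 and 15 in vehicle replicates 1, 3 and 4, and 23 in the Cancer-labelled library.

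**Figure D1:**
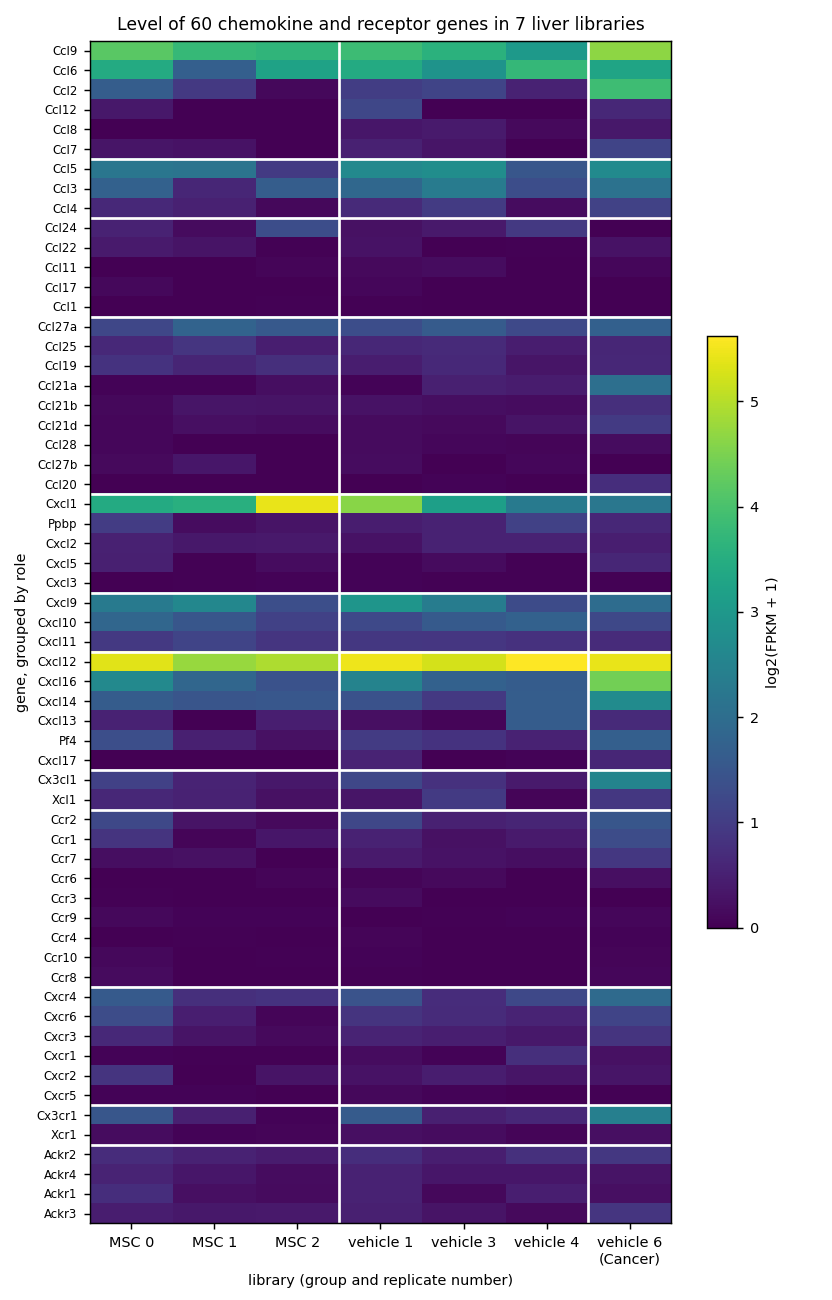
Level of 60 members in each of the 7 libraries as log2(FPKM + 1), members ordered by role and libraries by group, with lighter colour for higher values. Cxcl12 is the highest member in 6 of the 7 libraries, and 33 of the 61 members stay under 1 FPKM everywhere.

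The first comparison asks whether livers of mice given MSCs differed from those given vehicle. No chemokine or receptor passed the threshold. Cxcl12 and the inflammatory ligands Ccl3, Ccl5 and Ccl6 had lower MSC than vehicle means, and Cxcl1 and Ccl9 had higher ones, each with overlapping libraries. Of the 14 members that reached 1 FPKM in 3 or more of these 6 libraries, 12 ligands and 2 receptors, 0 were called by limma at adjusted p under 0.05, where 2 of 10534 genes, 0.019%, were called. At an unadjusted p under 0.05 again 0 of the 14 passed, against 5.59% of all genes. The lowest unadjusted limma p among them was 0.0771, for Cxcl12, and adjusted p ran from 0.977 to 1.00. Values below are in the order MSC replicates 0, 1 and 2, then vehicle replicates 1, 3 and 4.

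Ccl9 and Ccl6 are rodent CC chemokines that attract monocytes and macrophages through CCR1. Ccl9 measured 17.2, 12.5 and 11.8 FPKM with MSCs and 13.4, 11.0 and 7.23 FPKM with vehicle. Ccl6 measured 9.74, 2.24 and 8.35 FPKM with MSCs and 9.74, 6.36 and 12.4 FPKM with vehicle. In Ccl9 the lowest library was a vehicle library and in Ccl6 it was MSC replicate 1, and both genes' groups overlapped. Ccl2, the main ligand of CCR2, measured 2.17, 0.903 and 0.0917 FPKM with MSCs and 1.04, 1.24 and 0.441 FPKM with vehicle. The MSC libraries spanned the whole range of the vehicle libraries, and the log2 difference of Ccl2 was 0.00085 ± 0.37 (SE). The log2 difference was 0.38 ± 0.24 (SE) for Ccl9 and -0.57 ± 0.44 (SE) for Ccl6.

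Ccl3, Ccl4 and Ccl5 are inflammatory CC ligands that attract macrophages and T cells. Ccl5 measured 3.59, 3.47 and 0.942 FPKM with MSCs and 5.21, 5.74 and 1.84 FPKM with vehicle. Ccl3 measured 2.34, 0.518 and 2.14 FPKM with MSCs and 2.69, 4.06 and 1.5 FPKM with vehicle. For both, the 2 highest libraries were vehicle libraries and the lowest was an MSC library, but the vehicle minimum lay inside the MSC range. The log2 differences were -0.53 ± 0.41 (SE) for Ccl5 and -0.52 ± 0.35 (SE) for Ccl3. Ccl4 stayed under 1 FPKM in all 6, at 0.555, 0.419 and 0.0872 FPKM with MSCs and 0.584, 0.974 and 0.142 FPKM with vehicle, and was not tested.

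Among the CXC ligands, Cxcl12 measured 40.3, 26.0 and 29.5 FPKM with MSCs and 43.7, 37.0 and 48.0 FPKM with vehicle. MSC replicates 1 and 2 lay below every vehicle library and MSC replicate 0 lay between vehicle replicates 3 and 1. The vehicle mean of 42.9 ± 5.56 FPKM was 1.34 times the MSC mean of 31.9 ± 7.48 FPKM (SD, n = 3 each), a log2 difference of -0.43 ± 0.21 (SE, limma adjusted p = 0.977). Cxcl1, the mouse neutrophil attractant that binds CXCR2, measured 9.72, 10.7 and 42.4 FPKM with MSCs and 23.4, 8.0 and 3.97 FPKM with vehicle. It spread widely within both groups, and its higher MSC mean, 20.9 ± 18.6 against 11.8 ± 10.2 FPKM (SD, n = 3 each), came from MSC replicate 2. Summed neutrophil markers ran from 4.26 to 41.4 FPKM in the MSC and from 10.8 to 26.6 FPKM in the vehicle libraries. They were highest in MSC replicate 0, at 41.4 FPKM, and lower in the library with most Cxcl1, at 14.5 FPKM. The defining neutrophil marker Ly6g was at 0 in 6 of the 7 libraries.

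Cxcl9 and Cxcl10, the interferon-induced ligands of CXCR3, showed no order by group. Cxcl9 measured 3.86, 5.04 and 1.56 FPKM with MSCs and 6.61, 4.10 and 1.42 FPKM with vehicle. Cxcl10 measured 2.59, 1.84 and 1.12 FPKM with MSCs and 1.37, 1.99 and 2.35 FPKM with vehicle. The log2 differences were -0.11 ± 0.44 (SE) and -0.05 ± 0.23 (SE). Cxcl11, which is annotated as a polymorphic pseudogene in the C57BL/6 reference, ranged from 0.743 to 1.21 FPKM over these 6 libraries.

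Cxcl16 is a membrane-anchored ligand of CXCR6 that holds T and NKT cells and also binds oxidised lipoprotein. It measured 5.22, 2.64 and 1.66 FPKM with MSCs and 4.69, 2.35 and 2.12 FPKM with vehicle. Cxcl14, an epithelial chemokine, measured 2.13, 1.77 and 1.88 FPKM with MSCs and 1.66, 0.909 and 2.14 FPKM with vehicle. Ccl27a, an epithelial ligand of CCR10, measured 1.28, 2.44 and 1.99 FPKM with MSCs and 1.51, 2.05 and 1.35 FPKM with vehicle. The groups overlapped for all of them, with log2 differences of 0.0050 ± 0.34, 0.22 ± 0.21 and 0.13 ± 0.20 (SE).

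Cxcr4, the receptor of Cxcl12, measured 2.01, 0.681 and 0.773 FPKM with MSCs and 1.70, 0.650 and 1.33 FPKM with vehicle. The groups overlapped, with a log2 difference of -0.07 ± 0.28 (SE).

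Over the 14 members tested the median log2 difference was -0.06, beside -0.05 over all genes tested. A negative difference was found for 8 of the 14, beside 60.1% of all genes. Over all 61 members, the low ones included, 0 lay above every vehicle library in every MSC library, beside 2.21% of all genes listed. In the opposite direction 2 did, beside 5.21% of all genes listed: Ccl8, which in the mouse signals through CCR8, and Cxcr1, a neutrophil receptor. Ccl8 was listed at 0 in all 3 MSC libraries and at 0.273, 0.325 and 0.108 FPKM in the vehicle libraries. Cxcr1 measured 0.0316, 0.0175 and 0.0203 FPKM with MSCs and 0.145, 0.0340 and 0.693 FPKM with vehicle. Both were below the minimum for a test.

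**Figure D2:**
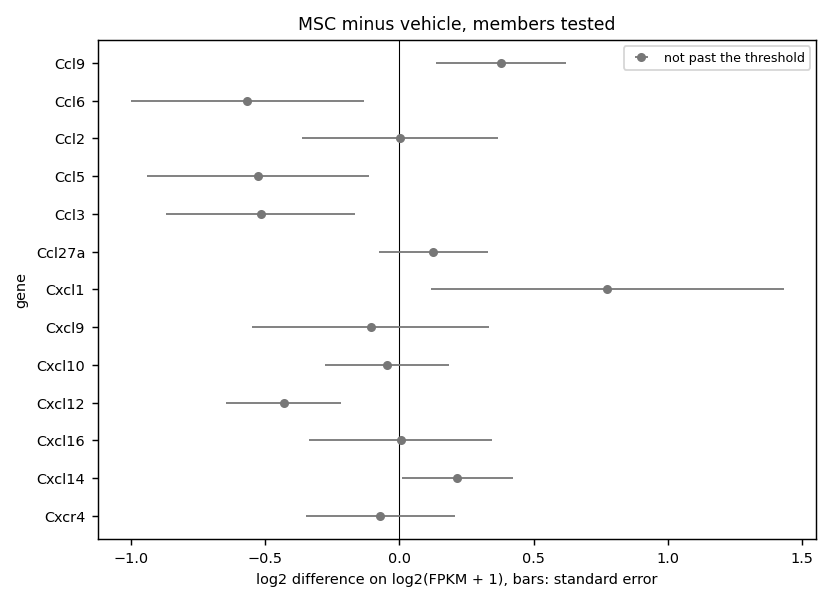
Difference of the MSC from the vehicle libraries on the log2(FPKM + 1) scale for 13 members tested, with bars of 1 standard error and 3 libraries per group. None passed the threshold; Cxcl1 has the highest difference, 0.77 ± 0.66, and Cxcl12 the lowest p.

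The second comparison sets the Cancer-labelled library beside the vehicle libraries. In it Ccl2, Ccl21a, Cx3cl1, Cxcl14 and Cxcl16 were higher than in the vehicle livers, at 3.55 to 15.0 times the vehicle mean, while Cxcl12, Ccl6, Ccl5 and Ccl3 were at 0.915 to 1.27 times of it. It has no replicate of its own: limma took the spread from the other 6 libraries, so the result compares this library with the vehicle group and cannot speak for a condition. Limma called 5 of 23 members tested higher, where 3.98% of all 12265 genes tested were called higher, and 0 lower, where 0.188% were. Of the 23, 9 did not pass the minimum in the other 6 libraries (Ccl4, Ccl7, Ccl21a, Ccr1, Ccr2, Cx3cl1, Cx3cr1, Cxcr6 and Pf4), so these were tested because they reached 1 FPKM in this library. Among the 10534 genes that passed in the other 6 libraries, 3 of 14 members were called higher (Ccl2, Cxcl14 and Cxcl16), beside 1.15% of all such genes.

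The largest difference was that of Ccl2 (ENSMUSG00000035385, chr11:82035571-82037453, plus strand), the monocyte attractant. It measured 13.5 FPKM in the Cancer-labelled library against 1.04, 1.24 and 0.441 FPKM with vehicle and at most 2.17 FPKM with MSCs. This was 15.0 times the vehicle mean of 0.905 ± 0.414 FPKM (SD, n = 3) and 10.9 times the highest vehicle library, a log2 difference of 2.96 ± 0.51 (SE, limma adjusted p = 0.0174). Ccl7, which lies beside it and also binds CCR2, measured 1.23 FPKM against 0.432, 0.250 and 0 FPKM with vehicle and 0.245, 0.218 and 0 FPKM with MSCs. It was above all 6 libraries but was not called (log2 difference 0.88 ± 0.24, SE, limma adjusted p = 0.0951). Ccl9 was also above all 6, at 24.1 FPKM against 7.23 to 17.2 FPKM, and was not called (log2 difference 1.16 ± 0.34, SE, adjusted p = 0.121), and Ccl6 at 8.67 FPKM lay inside the range of the others.

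Cxcl16 (chr11:70453983-70459984, minus strand) measured 20.3 FPKM in the Cancer-labelled library against 4.69, 2.35 and 2.12 FPKM with vehicle and at most 5.22 FPKM with MSCs. It was 6.66 times the vehicle mean of 3.05 ± 1.42 FPKM (SD, n = 3), with a log2 difference of 2.45 ± 0.48 (SE, limma adjusted p = 0.0278). Its receptor Cxcr6, found on resident T and NKT cells, measured 1.22 FPKM, inside the range of the other libraries, which were 1.46, 0.380 and 0.0506 FPKM with MSCs and 0.796, 0.622 and 0.467 FPKM with vehicle. So the ligand stood above all the other libraries. The receptor stood above every vehicle library but below MSC replicate 0. On the other strand Cxcl16 overlaps Zmynd15, which measured 2.73 FPKM in the Cancer-labelled library against 0.434 to 1.22 FPKM in the others, and without strand reads of the overlap cannot be told apart. The call of Cxcl16 rested on vehicle replicates 3 and 4: adjusted p was 0.0658 without the first and 0.0762 without the second.

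Cx3cl1 (fractalkine, chr8:94772009-94782427, plus strand), a membrane-anchored ligand of CX3CR1, measured 4.76 FPKM against 1.29, 0.749 and 0.335 FPKM with vehicle and 1.13, 0.479 and 0.284 FPKM with MSCs. This was 6.00 times the vehicle mean of 0.793 ± 0.481 FPKM (SD, n = 3), a log2 difference of 1.72 ± 0.36 (SE, limma adjusted p = 0.0334). Cx3cl1 reached 1 FPKM in only 2 of the other 6 libraries, so it was tested through its level in this one. Cx3cr1, its receptor on monocytes and macrophages, measured 4.34 FPKM against 2.07, 0.408 and 0.545 FPKM with vehicle and 1.83, 0.414 and 0.0403 FPKM with MSCs. Here ligand and receptor both lay above all 6 libraries, but the receptor, with its wide spread, was not called (log2 difference 1.5 ± 0.57, SE, adjusted p = 0.221). The deposited Cx3cr1 gene spans Csrnp1, Gorasp1 and Xirp1 on the same strand, so its value is uncertain. The call of Cx3cl1 was lost without MSC replicate 1, vehicle replicate 3 or vehicle replicate 4, with adjusted p of 0.0515, 0.0716 and 0.0761, and with TPM, at 0.055.

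Cxcl14 (chr13:56288643-56296551, minus strand) measured 5.57 FPKM against 1.66, 0.909 and 2.14 FPKM with vehicle and at most 2.13 FPKM with MSCs. It was 3.55 times the vehicle mean of 1.57 ± 0.619 FPKM (SD, n = 3), a log2 difference of 1.38 ± 0.29 (SE, limma adjusted p = 0.0354). It was the least stable of the called members. Its call was lost without MSC replicate 1, MSC replicate 2, vehicle replicate 1 or vehicle replicate 3, at adjusted p from 0.0502 to 0.0693, and after centring each library on its median, at 0.10. It was also lost with TPM, after quantile normalization and with the Cancer-labelled and vehicle libraries only, at 0.0784, 0.0868 and 0.0666.

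Ccl21a (ENSMUSG00000094686, chr4:42772860-42773993, minus strand) encodes a CCR7 ligand of lymphatic vessels and lymphoid tissue that draws in naive T cells and dendritic cells. It measured 3.17 FPKM in the Cancer-labelled library against 0.0389, 0.414 and 0.339 FPKM with vehicle and 0.0347, 0.0320 and 0.152 FPKM with MSCs. The library stood 7.65 times above the highest vehicle library, and the log2 difference was 1.73 ± 0.22 (SE, limma adjusted p = 0.00542), for a gene tested only through its level in this library. Ccl21a shares 71.6% of its 50-base windows with other transcripts, and its copies Ccl21b and Ccl21d share 100% and 97.1% of theirs, so the split between the copies is uncertain. They also share windows with copies outside these 3, such as Gm13304 and Gm10591, so their sum is uncertain too. The sum was 4.80 FPKM against 0.361, 0.670 and 0.693 FPKM with vehicle and 0.189, 0.458 and 0.520 FPKM with MSCs, which is 8.36 times the vehicle mean. The receptor Ccr7 measured 0.889 FPKM against at most 0.323 FPKM in the others, under the minimum for a test, and the other CCR7 ligand Ccl19, with 0.532 FPKM, lay inside the others' range of 0.248 to 0.777 FPKM.

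Ccl2, Ccl6, Ccl21a, Ccl27a, Cxcl10 and Cxcr6 also overlap a gene on the other strand. The calls of Ccl2 and Ccl21a held when any single library of the other groups was left out. All 5 calls were lost with a pseudocount of 0.1, at adjusted p from 0.130 to 0.238. The library's values were higher for most genes tested: 77.2% had a positive log2 difference and 22.8% a negative one. The median over all genes tested was 0.25, and centring on library medians moved it to -0.06, with Ccl2, Ccl21a, Cx3cl1 and Cxcl16 still called. Limma called 488 genes higher and 23 lower, and 318 higher and 65 lower after quantile normalization. The members' median log2 difference was 0.74 over the 23 tested. Over the 14 that passed the minimum without help of this library it was 0.30, beside 0.19 over all such genes.

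**Figure D3:**
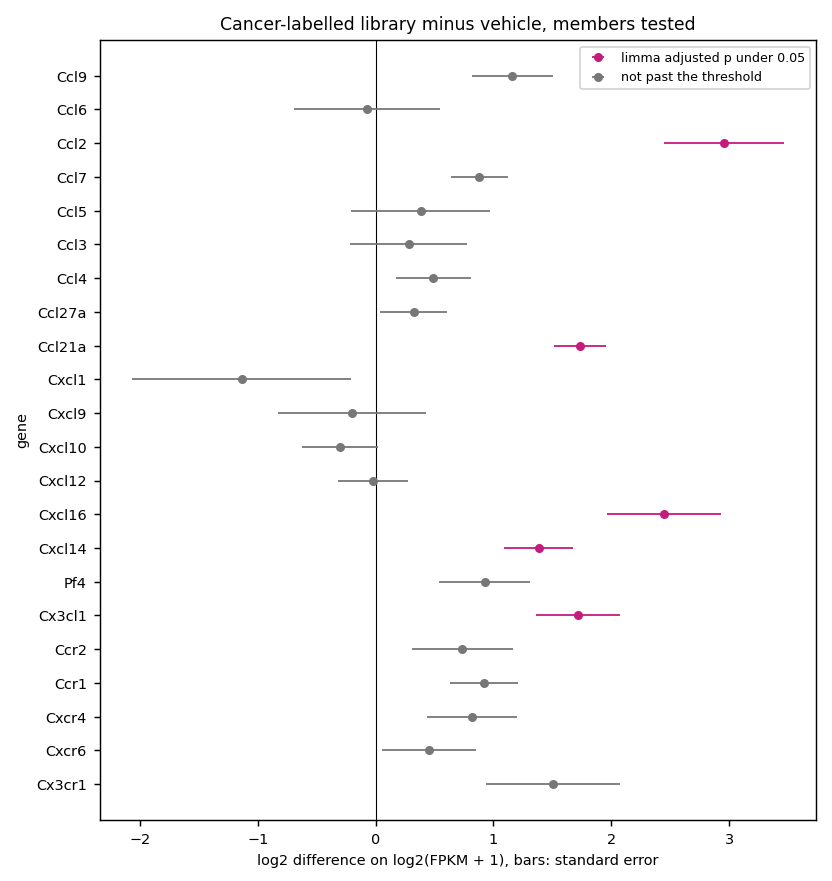
Log2 difference, Cancer-labelled library minus vehicle, on log2(FPKM + 1) for 22 members tested, with bars of 1 standard error and colour for those past the threshold. Ccl2, Cxcl16, Ccl21a, Cx3cl1 and Cxcl14 were called, with differences from 1.38 to 2.96; Cxcl1 has the lowest, -1.14 ± 0.93.

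Other members lay below, near or above the vehicle livers. Cxcl1 was lower in the Cancer-labelled library than in each of the 6 others, at 3.68 FPKM, but the vehicle spread was wide and it was not called (log2 difference -1.14 ± 0.93, SE, limma adjusted p = 0.572). Summed neutrophil markers were at 6.30 FPKM there, below the vehicle range of 10.8 to 26.6 FPKM and inside the MSC range, and their part in the Cxcl1 level was not tested. Cxcl9 and Cxcl10 measured 2.95 and 1.33 FPKM, with Cxcl10 just below the lowest vehicle library. Cxcl11, at 0.622 FPKM, was below all 6. So Cxcl9, Cxcl10 and Cxcl11 were each below the vehicle mean. Cxcl9 and Cxcl10 were not called, and Cxcl11 was under the minimum for a test. Cxcl12 at 42.0 FPKM, Ccl5 at 5.41 FPKM, Ccl3 at 3.37 FPKM and Ccl27a at 2.27 FPKM lay inside the range of the other libraries, with adjusted p from 0.601 to 0.980. Ccl4 at 1.14 FPKM was above all 6 and not called. Pf4, a platelet chemokine, measured 2.24 FPKM against 0.957, 0.765 and 0.442 FPKM with vehicle and 1.53, 0.405 and 0.199 FPKM with MSCs. It was above all 6 and not called (adjusted p = 0.272), with summed platelet markers of 0.699 FPKM, inside the vehicle range of 0.323 to 0.745 FPKM.

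Among the receptors, Ccr2, the receptor of Ccl2, measured 1.83 FPKM in the Cancer-labelled library against 1.29, 0.435 and 0.496 FPKM with vehicle and 1.34, 0.230 and 0.103 FPKM with MSCs. Ccr1 measured 1.49 FPKM against 0.461, 0.185 and 0.327 FPKM with vehicle and 0.793, 0.0553 and 0.261 FPKM with MSCs. Cxcr4 measured 2.85 FPKM, against at most 2.01 FPKM elsewhere. All 3 lay above the 6 other libraries and none was called, with adjusted p of 0.428, 0.145 and 0.326.

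Over every gene listed, 25 of the 61 members, 15 ligands and 10 receptors, were above all 6 other libraries in the Cancer-labelled one, beside 36% of all genes. Below all 6 were 3 (Cxcl1, Cxcl11 and Ccl24, the last listed at 0 there), beside 3.65% of all genes. Those above included Ccl20, the CCR6 ligand of epithelia, at 0.671 FPKM where 5 of the others listed it at 0, and its receptor Ccr6 at 0.170 FPKM. Cxcl5, Cxcr3, Ackr2 and Ackr3 were also above, each under 1 FPKM.

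Markers of bile duct cells were also high in the Cancer-labelled library, where 36% of all genes listed lay above the 6 others. Of 5 such markers 4 were called higher in the Cancer-labelled library (Krt19, Krt7, Epcam and Sox9) and all 5 lay above the 6 other libraries. Of the 4 called, Epcam alone passed the minimum without this library, so Krt19, Krt7 and Sox9 were tested because they were high in it. Without Spp1, which macrophages also express, their sum was 57.0 FPKM against 2.75 to 6.72 FPKM with vehicle and 2.55 to 4.76 FPKM with MSCs. Krt19 alone was 24.4 FPKM against 0.868 to 1.11 FPKM with vehicle. Monocyte and macrophage markers, without Spp1 but with the member Ccr2, summed to 16.3 FPKM against 8.98 to 14.3 FPKM with vehicle and 4.67 to 15.8 FPKM with MSCs. T cell markers summed to 6.22 FPKM against 1.49 to 3.41 FPKM with vehicle and 1.06 to 5.39 FPKM with MSCs, and B and plasma cell markers to 11.6 FPKM against 3.03 to 4.61 FPKM with vehicle. Dendritic cell markers summed to 5.14 FPKM against 1.84 to 4.56 FPKM, and NK cell markers, at 2.21 FPKM, lay inside the vehicle range. Kupffer cell markers, at 40.8 FPKM, were inside the vehicle range of 37.8 to 132 FPKM. The part of these cell types in the chemokine values was not tested.

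**Figure D4:**
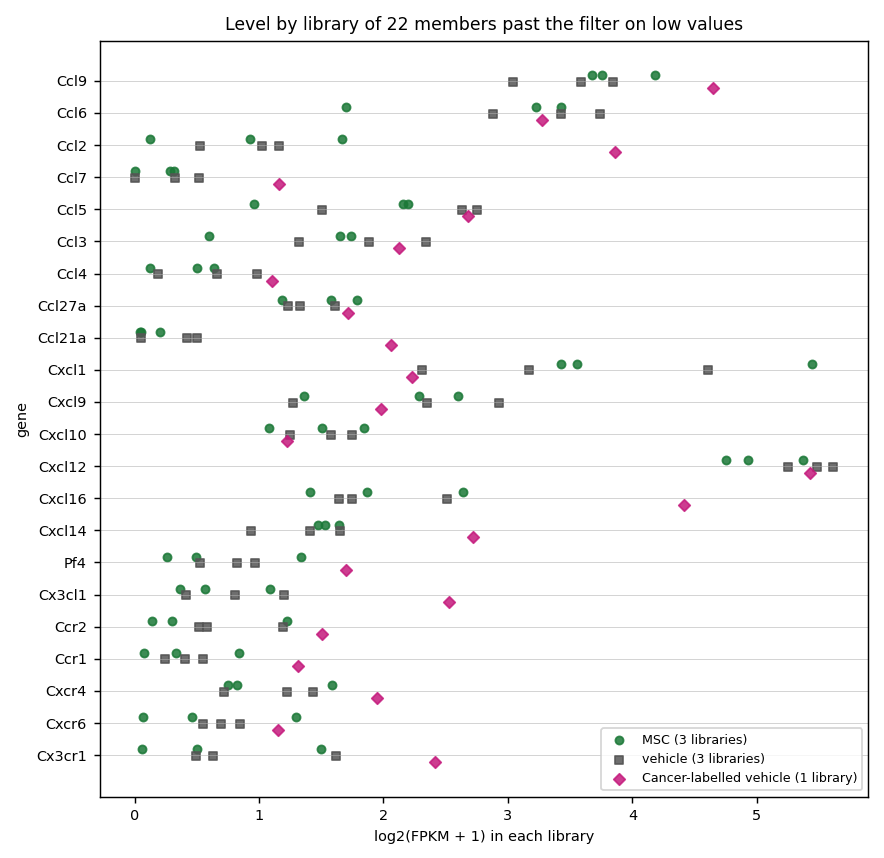
Level of the 22 described members as log2(FPKM + 1), 1 point per library, by group. The Cancer-labelled library lies above the other 6 for 13 of the 22, beside 46.5% of all 12265 genes tested. Of these 13, Ccl4, Ccl7, Ccl21a, Ccr1, Ccr2, Cx3cl1, Cx3cr1 and Pf4 were tested because they reached 1 FPKM in this library. For Cxcl1 the library lies below all 6, and MSC and vehicle libraries overlap for each member.

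The receptors, 16 of 22 of them under 1 FPKM in every library, shared a pattern between libraries that crossed the groups. Their summed level was 12.9, 3.89 and 2.99 FPKM in MSC replicates 0, 1 and 2, and 11.5, 4.98 and 7.40 FPKM in vehicle replicates 1, 3 and 4, with 17.7 FPKM in the Cancer-labelled library. MSC replicate 0 and vehicle replicate 1 thus stood above the rest of their groups. MSC replicate 0 was the highest MSC library for 42 of the 61 members, beside 48.7% of all genes listed, and for 19 of the 22 receptors, all but Ccr4, Ccr6 and Ccr7. Vehicle replicate 1 was the highest vehicle library for 34 members, beside 47.2% of all genes listed, 17 of them receptors. Both held for 24 members, 15 receptors and 9 ligands, beside 28.4% of all genes listed. The pattern was not particular to the receptors. Of 64 other genes of chemokine signalling, described below, 57 met the first rule, 47 the second and 42 both. Over the 10534 genes tested between MSC and vehicle the shares were 59.1%, 58.7% and 41.5%. Of the 14 members tested there, 11, 6 and 4 met these rules. Over the ligands the sums were closer, 110, 76.2 and 109 FPKM with MSCs, 124, 93.2 and 92.7 FPKM with vehicle and 154 FPKM in the Cancer-labelled library. These counts describe the libraries and were not tested.

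The markers of leukocytes followed the same libraries in part. Monocyte and macrophage markers without Spp1 were at 15.8, 4.95 and 4.67 FPKM with MSCs and 14.3, 8.98 and 10.4 FPKM with vehicle. T cell markers were at 5.39, 1.61 and 1.06 FPKM with MSCs and 3.41, 3.08 and 1.49 FPKM with vehicle. In both lists MSC replicate 0 and vehicle replicate 1 were the highest of their groups. The same held for dendritic and NK cell markers. It also held for hepatocyte, stellate cell, sinusoidal endothelium and bile duct markers, so the order was not particular to leukocytes. Among the vehicle libraries, neutrophil, Kupffer cell and platelet markers were instead highest in replicate 4, and B and plasma cell markers in replicate 3. The part of leukocyte number in the receptor levels was not tested. Without both libraries, a choice made after seeing the data, 0 members were called between MSC and vehicle. These libraries had the highest receptor sums of their groups, so leaving them out lowers the remaining level and spread of such genes. Calls gained by the Cancer-labelled library in that fit follow in part from this choice and are not a result about the members.

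By role, the 6 monocyte and macrophage attracting CC ligands summed to 29.6, 15.9 and 20.2 FPKM with MSCs, 26.2, 19.2 and 20.1 FPKM with vehicle and 48.4 FPKM in the Cancer-labelled library. The 3 inflammatory CC ligands Ccl3, Ccl4 and Ccl5 summed to 6.49, 4.41 and 3.17 FPKM with MSCs, 8.48, 10.8 and 3.48 FPKM with vehicle and 9.92 FPKM in the Cancer-labelled library. The 5 ELR CXC ligands summed to 11.5, 11.2 and 43.1 FPKM with MSCs and 24.0, 9.07 and 5.61 FPKM with vehicle, and were lowest, at 5.14 FPKM, in the Cancer-labelled library. As sums, the first of these roles set the Cancer-labelled library above all others and the second left it inside the vehicle range. The third sum was lowest there, but its members differed. Cxcl1 held 3.68 FPKM of the 5.14 FPKM and was lowest in that library without being called. Cxcl5 was instead highest there, at 0.517 FPKM, and Cxcl2, Cxcl3 and Ppbp lay inside the range of the other libraries. The 10 CC receptors summed to 3.89, 0.909 and 0.833 FPKM with MSCs, 3.83, 1.35 and 2.30 FPKM with vehicle and 5.77 FPKM in the Cancer-labelled library.

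**Figure D5:**
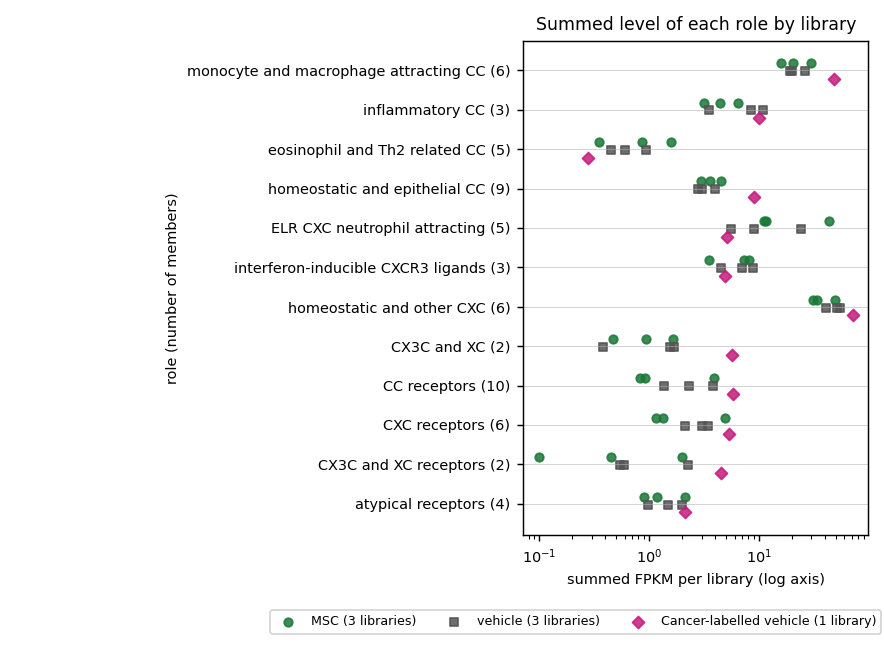
Summed FPKM of each role per library on a log axis, 1 point per library, with the number of members in brackets. The Cancer-labelled library is highest for the monocyte and macrophage attracting CC ligands, at 48.4 FPKM, and lowest for the ELR CXC ligands, at 5.14 FPKM. Cxcl1 holds 3.68 FPKM of this ELR sum, and the ELR member Cxcl5 is highest in this library. The Cancer-labelled library is also highest for both homeostatic ligand roles, the CX3C and XC ligands, and the CC, CXC, and CX3C and XC receptors. The eosinophil and Th2 related CC ligands are also lowest in it, at 0.279 FPKM.

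Of the remaining low members, Cxcl13, the B cell attractant that binds CXCR5, reached 2.12 FPKM in vehicle replicate 4 and at most 0.584 FPKM elsewhere. Ccl24, an eosinophil attractant, reached 1.5 FPKM in MSC replicate 2, and Ccl12, a mouse CCR2 ligand, 1.29 FPKM in vehicle replicate 1 with 4 libraries at 0. Ppbp, a platelet chemokine, ranged from 0.135 to 1.13 FPKM. These peaks fell in different libraries of both groups. The neutrophil ligands Cxcl2, Cxcl3 and Cxcl5 stayed at most 0.517 FPKM, and Cxcl1 was the highest ELR ligand in every library. Ccl1, Ccl11, Ccl17 and Ccl22 stayed at most 0.333 FPKM, and Ccl28 at most 0.130 FPKM. Ccl25, which draws lymphocytes to the gut through CCR9, ranged from 0.365 to 0.820 FPKM, Ccl27b from 0 to 0.275 FPKM and Cxcl17 from 0 to 0.509 FPKM. Xcl1, made by T and NK cells, ranged from 0.0471 to 0.941 FPKM, and Xcr1, its receptor on dendritic cells, from 0.0362 to 0.178 FPKM.

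The low receptors fell into those that were nearly absent and those near the minimum. Ccr3, Ccr4, Ccr8, Ccr9, Ccr10 and Cxcr5 stayed at most 0.114 FPKM. Cxcr2, the neutrophil receptor of Cxcl1, reached 0.808 FPKM in MSC replicate 0 and was at 0 in MSC replicate 1, and Cxcr3, the receptor of Cxcl9 and Cxcl10, ranged from 0.10 to 0.797 FPKM. The atypical receptors were all under 1 FPKM. Ackr2, which clears inflammatory CC chemokines, ranged from 0.347 to 0.891 FPKM, Ackr3, which binds CXCL12, from 0.0963 to 0.820 FPKM and Ackr4, which clears CCR7 ligands, from 0.130 to 0.463 FPKM. Ackr1, at 0.0819 to 0.676 FPKM, overlaps Cadm3 on the same strand, so its value is uncertain.

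A list of 64 other genes of chemokine signalling (G protein subunits, receptor kinases, arrestins, regulators of G protein signalling, kinases and adaptors downstream of the receptors) was examined in the same fits. Between MSC and vehicle 0 of 42 tested were called, and 35 of the 42 had a negative log2 difference, beside 60.1% of all genes. The median was -0.08, beside -0.05 over all genes. The lowest p belonged to Rgs16, a regulator that shortens G protein signals, Crkl, an adaptor, and Gnai1, an inhibitory G protein subunit. Rgs16 measured 81.6, 105 and 50.3 FPKM with MSCs and 65.6, 16.2 and 1.34 FPKM with vehicle, overlapping through vehicle replicate 1 and MSC replicate 2 (log2 difference 2.46 ± 1.00, SE, limma adjusted p = 0.822). Crkl measured 5.63, 4.51 and 4.76 FPKM with MSCs and 6.72, 6.03 and 7.43 FPKM with vehicle, without overlap (log2 difference -0.37 ± 0.16, SE, adjusted p = 0.860). Gnai1 measured 2.86, 3.28 and 1.33 FPKM with MSCs and 4.59, 8.99 and 2.84 FPKM with vehicle, with overlap (log2 difference -0.83 ± 0.36, SE, adjusted p = 0.890).

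In the Cancer-labelled library 1 of 54 signalling genes tested, 1.85%, was called higher, which is below the 3.98% of all genes. This was Grk5, a kinase that phosphorylates activated receptors. It measured 2.40 FPKM against 0.720, 0.753 and 0.515 FPKM with vehicle and 0.857, 0.535 and 0.368 FPKM with MSCs, with a log2 difference of 1.04 ± 0.23 (SE, limma adjusted p = 0.0425). It stood above all 6 libraries, in each of which it was under 1 FPKM, so it was tested only through its level in this library. Of the 54 genes 12 did not pass the minimum in the other 6 libraries, and among the other 42 limma called 0, beside 1.15% of all such genes, with a median log2 difference of 0.37 beside 0.19. Of the 54 genes 48 had a positive difference, beside 77.2% of all genes, and the median was 0.46, beside 0.25 over all genes. Both comparisons use the same 3 vehicle libraries.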

How the data were processed

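Total RNA of 7 liver samples was sequenced, extracted with Trizol per the labels' protocols. The authors deposited FPKM per gene and library, per the file headers. Cutadapt 1.9, FastQC 0.11.9, StringTie 2.1.6, HISAT2 2.2.1 and the builds mm10 and GRCm38 are named in the submitters' processing notes. The sources used here do not give the strand handling. Low values held no common step between libraries (of 964 genes compared, at most 20 shared a ratio within 0.02 log2), so reads were not recovered and, with the depth unknown, no counting interval can be given. Because FPKM is relative to the library, abundant genes lower all others.

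Limma 3.58.1 in R 4.3.3 (lmFit, eBayes with trend) was fitted on log2(FPKM + 1) over the whole table. MSC minus vehicle tested the 10534 genes that reached 1 FPKM in 3 or more of 6 libraries. The Cancer-labelled library was compared with vehicle in a model of 3 groups over 7 libraries, for the 12265 genes that reached 1 FPKM in 3 or more libraries or in the Cancer-labelled one. The steps were tested on simulated data. Alternatives changed the pseudocount, the filter, the scaling, limma's settings and the libraries kept or pooled.

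The members, roles and lists were chosen with earlier results of these data known, and Ccl24 was moved to the eosinophil role after its values were seen. Members past the minimum are described with all values, the others by range. Of the members, 1 is not reported here and enters only counts, sums and medians. Of the signalling list the members past a threshold, or else the 3 of lowest p, are named. All 61 members matched the GENCODE annotation of GRCm38, 54 with the same coordinates, and coordinates are those of the deposited table. Promoter windows were trimmed to bases outside the deposited gene. The packages data.table (version 1.17.8), jsonlite 2.0.0, pandas 2.3.3 and matplotlib 3.10.9 were also used.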

Additional observations from a re-analysis of the deposited data

How the results depend on the processing

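No paired analysis was made because the labels state no pairing between MSC and vehicle libraries. No member was called between MSC and vehicle under any alternative run. There, 2 genes were called over the whole table, 1 with the Cancer-labelled library counted as vehicle, 1 without MSC replicate 0 and vehicle replicate 1, and 1 to 8 when each library was left out in turn. The members' median log2 difference was -0.39 with the Cancer-labelled library counted as vehicle, and -0.23 to 0.11 when each library was left out.

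For the Cancer-labelled library, genes called went from 511 to 13 with a pseudocount of 0.1, 838 with 5, 1035 without a filter, 80 with a minimum of 5 FPKM, 1032 without MSC replicate 0 and vehicle replicate 1, and 267 to 631 when each library was left out. Members called went from 5 to 0 with a pseudocount of 0.1, 0 with a minimum of 5 FPKM, 9 without the 2 libraries, and 2 to 6 when each library was left out. The 5 kept no call with a pseudocount of 0.1, and without a filter Ccl21a was the one of them still called, where Ccl2 had an adjusted p of 0.0573. With 5 FPKM as the minimum, Ccl2 had 0.0504. With TPM 5 members were again called, but Cx3cl1 and Cxcl14 were lost and Ccl20 and Ccl21d gained. Signalling genes called went from 1 to 0 with a pseudocount of 0.1, without a filter, with a minimum of 5 FPKM, with TPM, after centring, after quantile normalization and without trend. They went to 2 without mitochondrially encoded genes, 3 with a pseudocount of 5, 6 without the 2 libraries, and 0 to 1 when each library was left out. The members' median went from 0.74 to 1.23 with a pseudocount of 0.1, 0.25 with 5, 0.14 without a filter and 0.37 after quantile normalization. The cause of these changes was not tested.

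Signs turned for these members, in differences that were not called. Between MSC and vehicle, Ccl2 was -0.31 and Cxcl16 -0.0089 with a pseudocount of 0.1, and -0.13 and -0.088 with TPM. With the Cancer-labelled library counted as vehicle, Ccl2 was -0.74, Cxcl10 0.029, Cxcl14 -0.13 and Cxcl16 -0.61. Without the 2 libraries, Cxcl16 was -0.056 and Cxcl9 0.16. With each library left out, Cxcl16 ran from -0.33 to 0.29, Ccl2 from -0.19 to 0.39, Ccl27a from -0.0071 to 0.29, Cxcr4 from -0.27 to 0.082, Cxcl10 from -0.23 to 0.15 and Cxcl9 from -0.56 to 0.27. For the Cancer-labelled library, Cxcl12 was 0.037 with TPM and 0.11 without mitochondrially encoded genes, where Ccl6 was 0.049. Ccl3 was -0.031 after centring. Ccl27a was -0.036, Ccl3 -0.051, Ccl4 -0.060 and Cxcr6 -0.036 after quantile normalization. Cxcl9 was 0.17 without the 2 libraries. With each library left out, Cxcl9 ran from -0.66 to 0.17, Ccl5 from -0.015 to 0.61, Ccl6 from -0.31 to 0.12 and Cxcl12 from -0.12 to 0.061.

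Depth is unknown, so values under 1 FPKM carry no stated counting error. The Cancer-labelled library has no replicate, and values of Ccl21a, Ccl21b, Ccl21d, Ccl27a and Ccl27b depend on how reads were divided between copies.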
